A study of Mus musculus with 24 samples.

Results

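The PEA3 group is a small branch of the ETS family of transcription factors, and its 3 members in the mouse are Etv1, Etv4 and Etv5. They were taken by gene symbol, and all 3 were found among the 15736 genes of the deposited count table. PEA3 factors bind DNA through an ETS domain and are activated when they are phosphorylated by ERK, the kinase at the end of the cascade that receptor tyrosine kinases switch on. Transcripts of Etv4 and Etv5 are widely used as a readout of fibroblast growth factor (FGF) signalling in embryonic epithelia, where the repressor Capicua holds such genes down until ERK relieves it. In the early inner ear, FGF3 and FGF10 act through the FGFR2b form of their receptor on the otic epithelium.

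RNA was sequenced from dissected epithelium of the otocyst, the vesicle from which the mouse inner ear forms. Control pools (con) had the genotype Rosa26rtTA/+ and so carried only the doxycycline-dependent activator, expressed from the ubiquitous Rosa26 locus. Experimental pools (R2b) had the genotype Rosa26rtTA/+;Tg(tetO-s(dn)Fgfr2b)/+, which adds a transgene for a soluble dominant-negative FGFR2b, a secreted trap for the ligands of that receptor. The question was which transcripts depend on FGFR2b ligands as the inner ear begins to take shape. Every dam was injected with doxycycline (1.5 mg/kg) and then fed it in chow (200 mg/kg), so con embryos were exposed as well. The exposure written E9.75+12h began at stage E9.75, in embryonic days, and lasted 12 h, and those written E9.25+24h and E10.25+24h began at E9.25 and at E10.25 and lasted 24 h. The first and second exposures therefore both ended at E10.25, and the third ended at E11.25. Each library was a pool of otocysts of 1 genotype from 1 pregnant female, and the con and R2b pools of that female are called a litter here. There were 3 litters with both columns at E9.75+12h and 4 in each of the other exposures, which gave 22 libraries. The main tests compared con with R2b pools without pairing them by litter. Their adjusted p-values therefore measure the spread between pools of a group, each from a different litter. Fits that pair the pools, with the litter as a block, are given as alternatives. Because tissue was pooled in bulk, fewer cells of a type and less RNA per cell cannot be told apart.

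Libraries held 18676615 to 28241583 counts. All 9 of 9 otocyst epithelium markers, such as Pax2, Oc90 and Epcam, were in the table, with a summed level of 1511 to 7132 CPM (reads per 1000000, scaled between libraries). Ighg1 reads mark the trap transgene, whose receptor part is joined to an immunoglobulin constant region. In the exposures that ended at E10.25 the R2b libraries held 1025 to 3056 CPM of Ighg1 and the con libraries at most 36 reads. At E10.25+24h these reads went against the labels in litter 1, since the con pool by label held 679 CPM and the R2b pool by label 54.65 CPM. The con pool of litter 3 of that exposure held 201 CPM. In the column order of the deposited table, too, both libraries of litter 1 stand in the place of the other genotype, while all other libraries stand in blocks by label. Groups were kept as labelled, and values of the members at E10.25+24h are given with and without litter 1, or litters 1 and 3.

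Etv5 (ENSMUSG00000013089) lies on chromosome 16 from 22381309 to 22439719 on the minus strand of GRCm38. It was the most abundant member in con per length of exon. At E9.75+12h con pools, in litters 1 to 3, held 99.3, 95.9 and 102 CPM, and the R2b pools of the same litters held 12.0, 12.7 and 32.8 CPM. At E9.25+24h the con pools held 116, 111, 118.5 and 108.5 CPM in litters 1 to 4, and the R2b pools held 22.2, 18.5, 11.9 and 32.45 CPM. The groups did not overlap in either exposure, but the share of all genes without overlap was not counted, here or for the members below. Con pools were tightly spaced, with coefficients of variation of 3.14% and 3.99% in the shorter and the longer exposure, whereas those of the R2b pools were 61.6% and 40.4%. Etv5 fell to 19.3% of the con mean at E9.75+12h, a log2 fold change of -2.36 with a standard error of 0.31 (edgeR adjusted p = 0.000886, n = 3 litters, lower in 3 of 3). It fell to 18.7% at E9.25+24h, a log2 fold change of -2.42 with a standard error of 0.25 (edgeR adjusted p = 0.000998, n = 4 litters, lower in 4 of 4).

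The genomic sequence upstream of a start of Etv5 is shown because Capicua binds short octamers in genes of this kind, and such octamers could be looked for beside the falls. The 250 bases below precede the start of an annotated transcript at chr16:22438369-22438618 on the minus strand (RefSeq, GRCm38.p6), within an intron of a longer GENCODE transcript. Capitals mark octamers of the Capicua type.
Etv5: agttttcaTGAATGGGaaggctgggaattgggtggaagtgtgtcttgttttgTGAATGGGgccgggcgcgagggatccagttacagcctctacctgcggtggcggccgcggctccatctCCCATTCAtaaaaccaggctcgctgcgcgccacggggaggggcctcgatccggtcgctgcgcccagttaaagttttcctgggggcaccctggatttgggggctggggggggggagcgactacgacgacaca
The octamer TGAATGGG occurs at -242 and -198 on the gene's strand and at -131 on the opposite strand, counted from the start site. The search covered TGAATGAA, TGAATGAG, TGAATGGA, TGAATGGG, TCAATGAA, TCAATGAG, TCAATGGA and TCAATGGG on both strands, and the set was widened to these letters after that window had been read. A second RefSeq window of Etv5, at chr16:22439521-22439820, holds none of these octamers and is not printed. Of 32851 windows of 300 bases around RefSeq starts, 7.02% held at least 1 of them. The ETS core GGAAGT, which PEA3 proteins themselves can bind, also stands in the Etv5 sequence, at -217, and 23.8% of all windows held it on either strand.

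Etv4 (ENSMUSG00000017724) lies on chromosome 11 from 101769742 to 101785371 on the minus strand. Together with Etv5 it is needed for branching of epithelia such as the ureteric bud of the kidney. At E9.75+12h the con pools held 49.97, 40.8 and 47.3 CPM and the R2b pools 3.52, 4.90 and 15.3 CPM, in litters 1 to 3. At E9.25+24h the con pools held 42.99, 38.2, 27.6 and 33.5 CPM and the R2b pools 6.51, 3.54, 1.21 and 9.02 CPM, in litters 1 to 4. As with Etv5, no R2b pool reached the lowest con pool. Etv4 fell to 17.2% of the con mean at E9.75+12h (log2 fold change -2.54, standard error 0.40, edgeR adjusted p = 0.00208, lower in 3 of 3 litters). It fell to 14.3% at E9.25+24h (log2 fold change -2.81, standard error 0.47, edgeR adjusted p = 0.00752, lower in 4 of 4 litters). At E9.25+24h this call was lost without litter 1 (-2.85, adjusted p = 0.0706) and without litter 2 (-2.62, adjusted p = 0.0740), at nearly the same size. With the litter as a block, the same 2 fits gave -2.98 (edgeR adjusted p = 0.000544) and -2.73 (edgeR adjusted p = 0.000836). Among the 14882 and 14979 genes tested, ordered from the largest fall, Etv4 stood at place 6 and place 5, and Etv5 stood at place 9 in both exposures.

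Etv1 (ENSMUSG00000004151) lies on chromosome 12 from 38779380 to 38870484 on the plus strand, and is best known from the wiring of sensory and motor neurons and from interstitial cells of Cajal. It was the least abundant member, with 21 to 285 reads a library. At E9.75+12h con pools held 13.4, 8.88 and 12.4 CPM, and R2b pools held 2.48, 5.50 and 5.81 CPM, in litters 1 to 3. At E9.25+24h con pools held 8.57, 7.503, 4.84 and 9.42 CPM, and R2b pools held 2.31, 1.55, 0.940 and 4.77 CPM, in litters 1 to 4. The groups did not overlap, but at E9.25+24h the highest R2b pool, of litter 4, came close to the lowest con pool, of litter 3. Etv1 fell to 39.7% of the con mean at E9.75+12h (log2 fold change -1.31, standard error 0.29, edgeR adjusted p = 0.0106, lower in 3 of 3 litters) and to 31.6% at E9.25+24h (log2 fold change -1.66, standard error 0.44, edgeR adjusted p = 0.0372, lower in 4 of 4 litters). By size of fall it stood at place 74 and place 36. At E9.75+12h the Etv1 call was lost without litter 1 (log2 fold change -0.89, adjusted p = 0.102), without the con pool of litter 1 (-1.19, adjusted p = 0.0502) and with all libraries in 1 fit (-1.33, adjusted p = 0.0518). At E9.25+24h it was lost in 9 of 12 fits without a block that left out a pool or a litter. Log2 fold changes over the 12 fits were -2.23 to -1.39, with an edgeR adjusted p of up to 0.181. With the litter as a block Etv1 was at -1.76 with an edgeR adjusted p of 0.000181. Block fits without litter 1, 2, 3 or 4 kept the call (edgeR adjusted p of 0.00212, 0.00248, 0.00108 and 2.37e-06).

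The window upstream of an Etv1 start is printed for comparison with that of Etv5. It covers chr12:38779832-38780081 on the plus strand (RefSeq, GRCm38.p6), again within an intron of a longer GENCODE transcript, and none of the Capicua octamers above stands in it.
Etv1: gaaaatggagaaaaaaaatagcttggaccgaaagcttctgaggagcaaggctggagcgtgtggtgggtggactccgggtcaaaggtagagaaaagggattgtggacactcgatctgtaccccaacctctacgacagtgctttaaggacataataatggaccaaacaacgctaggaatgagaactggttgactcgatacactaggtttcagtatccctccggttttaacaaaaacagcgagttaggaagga
An ETS core begins at -3 and runs past the start, so its last letters are not printed. RefSeq windows were found for 2 of the 3 members, Etv1 and Etv5. The letters describe these windows only and were not set against any measurement of binding.

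**Figure D1:**
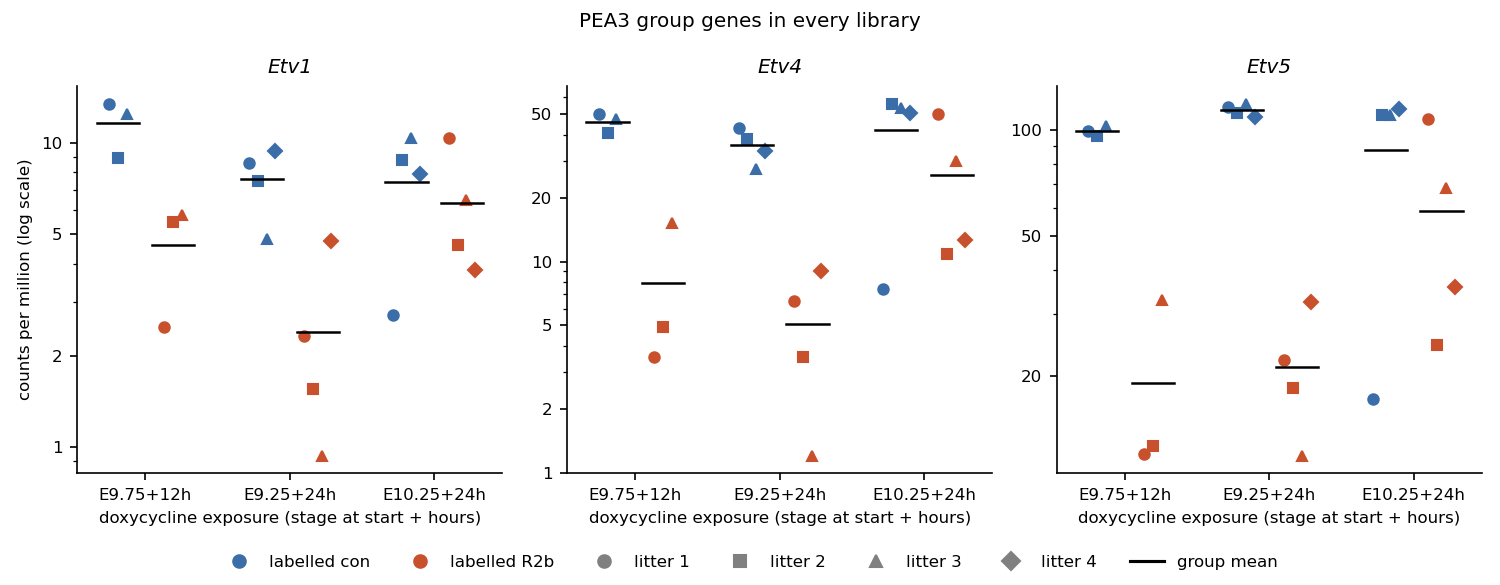
Each panel plots 1 gene, with CPM on a log axis for every library and groups by doxycycline exposure on the horizontal axis. Blue marks libraries labelled con, red those labelled R2b, the marker shape gives the litter and the black line the group mean. At E9.75+12h and E9.25+24h the red points lie below all blue ones, and at E10.25+24h the blue point of litter 1 lies among the low values (17.2 CPM for Etv5) and the red point of litter 1 among the high ones (107 CPM).

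All 3 members were thus called lower in both exposures that ended at E10.25. For comparison, edgeR called 9.78% of all genes lower and 10.20% higher at E9.75+12h, and 6.5% lower and 9.09% higher at E9.25+24h. The median log2 fold change of all genes was 0.01 and -0.01. A different response to the earlier start and longer exposure was not detected for any member. The response at E9.25+24h minus that at E9.75+12h was -0.33 for Etv1 (standard error 0.67, edgeR adjusted p = 0.881), -0.25 for Etv4 (standard error 0.91, adjusted p = 0.937) and -0.04 for Etv5 (standard error 0.73, adjusted p = 0.991) on the log2 scale. These standard errors leave room for differences of over 1 log2 unit. They come from 1 fit of all 22 libraries, so the spread at E10.25+24h, where litter 1 went against its labels, entered them. Standard errors within the exposures were 0.29 and 0.44 for Etv1, 0.40 and 0.47 for Etv4, and 0.31 and 0.25 for Etv5. No fit of this difference without E10.25+24h was run. Over all genes edgeR called 0% for that difference (1908 genes at an unadjusted p under 0.05), and DESeq2 called 99 genes. Without litter 2 of E9.75+12h edgeR called 1062 genes, and without its litter 3 it called 21.

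Within litters, the R2b pool held 7.06%, 12.0% and 32.3% of the con level of Etv4 at E9.75+12h, and 12.1%, 13.2% and 32.1% of that of Etv5. Litter 3 thus kept the most of both. For Etv1 the order was not the same, with 18.5%, 62.0% and 46.8% left in litters 1 to 3. At E9.25+24h litter 3 kept the least and litter 4 the most of every member. Litter 3 kept 19.4% of Etv1, 4.38% of Etv4 and 10.0% of Etv5. Litter 4 kept 50.7%, 26.9% and 29.9%.

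**Figure D2:**
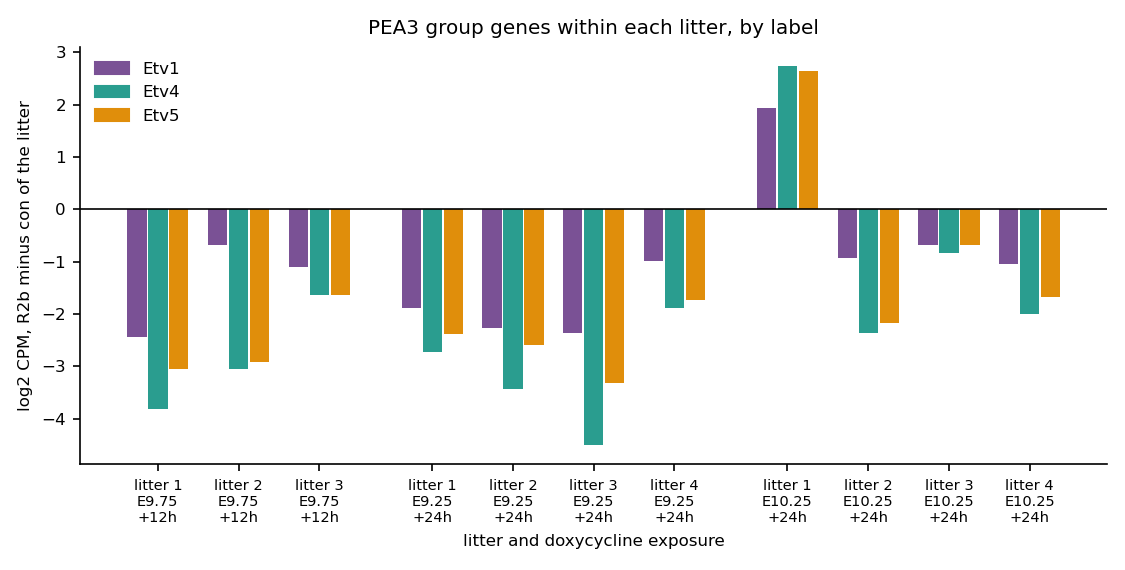
Bars give the log2 CPM of the R2b pool minus that of the con pool of the same litter, by label, for Etv1 (purple), Etv4 (green) and Etv5 (orange). The horizontal axis lists the litters of each exposure. All bars of the first and second exposures point down, and those of litter 1 at E10.25+24h point up, to 2.74 for Etv4.

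Trap reads and markers of other cell types ran beside these levels in part. The R2b pool with the lowest trap reads at E9.75+12h was that of litter 3 (1025 CPM of Ighg1, against 1500 CPM in litter 1 and 3056 CPM in litter 2), which also held the most Etv4 and Etv5. At E9.25+24h the R2b pool of litter 3 had the highest trap reads, 1902 CPM, and the least of every member. The other R2b pools did not keep that order, since litter 4 had more trap reads (1461 CPM) than litter 1 (1230 CPM) and litter 2 (1355 CPM) and yet the highest members.

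At E9.25+24h the summed markers of mesenchyme (12 of 12 in the table), endothelium (10 of 10), blood (10 of 12) and hindbrain (3 of 11) each had the order of every member over the R2b pools, with litter 4 highest, then litters 1, 2 and 3. Mesenchyme markers summed to 388, 146, 86.9 and 1217 CPM in the R2b pools of litters 1 to 4, and blood markers to 249.5, 132, 12.6 and 632 CPM. In the con pools of that exposure all 4 sums had the order of Etv1 but not that of Etv4 or Etv5. At E9.75+12h mesenchyme summed to 172, 356 and 206 CPM in the R2b pools of litters 1 to 3, which is not the order of any member, and of the 4 sums only that of blood (93.9, 116 and 119.8 CPM) had that order. At E10.25+24h none of these 4 sums had the order of a member over the libraries labelled R2b.

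Between con and R2b pools the sums of mesenchyme, endothelium and blood overlapped in every exposure, but single markers were mostly lower in R2b for endothelium and blood. Of the endothelium genes 7 of 9 tested were lower at E9.75+12h (median log2 fold change -0.19) and 10 of 10 at E9.25+24h (median -0.87). Over all genes 48.64% and 51.73% were lower. At E9.25+24h the endothelium sums of con pools were 52.1, 27.9, 15.75 and 294.7 CPM in litters 1 to 4. Those of R2b pools were 44.05, 29.4, 15.4 and 134.6 CPM, so the widest gap was in litter 4. Tek, an endothelial receptor, was called at E9.75+12h, where con pools held 5.26 ± 1.59 CPM and R2b pools 1.94 ± 0.83 CPM (edgeR adjusted p = 0.0159). All 8 tested blood genes were lower in both exposures (medians -1.51 and -0.97), and none was called. The blood sums did not go that way in every litter. At E9.75+12h they were 797, 21.5 and 295 CPM in con and 93.9, 116 and 119.8 CPM in R2b pools of litters 1 to 3. At E9.25+24h con pools held 242, 154, 9.74 and 1630 CPM and R2b pools 249.5, 132, 12.6 and 632 CPM, in litters 1 to 4. No mesenchyme gene was called.

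By their sums, the otocyst epithelium and hindbrain lists were higher in R2b in both exposures that ended at E10.25, and otic neuroblast markers only at E9.75+12h. The otocyst epithelium sum was 2687 to 2956 CPM in con and 2981 to 4023 CPM in R2b pools of E9.75+12h, where 4 of its 9 genes rose and 1 fell. It was higher in R2b in all 4 litters of E9.25+24h, where 2 rose and 2 fell. The hindbrain sum was 7.06 to 10.26 CPM in con and 14.9 to 18.1 CPM in R2b pools of E9.75+12h, and higher in R2b in all 4 litters of E9.25+24h (5.002 to 22.31 and 14.85 to 31.83 CPM). The 6 otic neuroblast markers summed to 254 to 293 CPM in con and 395 to 448 CPM in R2b pools of E9.75+12h, and to 168 to 316 CPM and 184 to 204 CPM at E9.25+24h. At E9.25+24h 4 of these 6 genes were lower in R2b, 0 were called and their median log2 fold change was -0.14. The part of any of these cell types in the levels of the members was not tested.

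**Figure D3:**
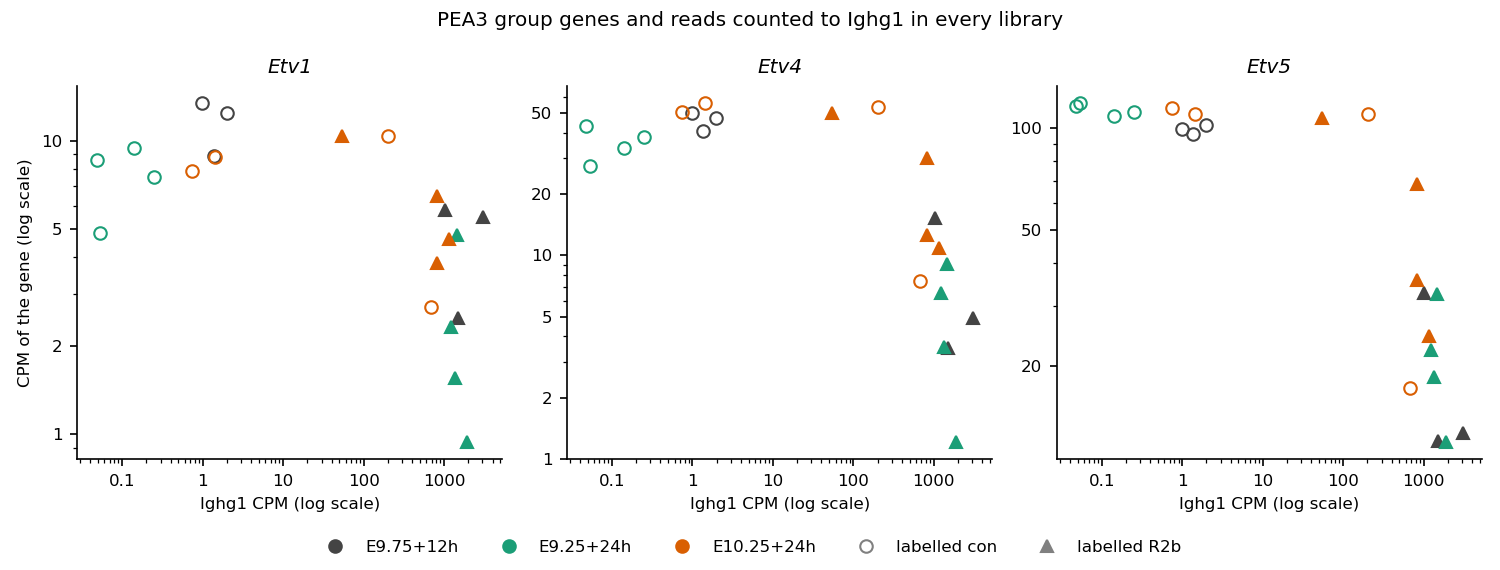
Each panel plots 1 gene against the reads counted to Ighg1, both in CPM on log axes, for all 22 libraries. Colour gives the exposure, open circles are libraries labelled con and filled triangles those labelled R2b. Libraries with Ighg1 at or below 201 CPM hold 95.9 to 118.5 CPM of Etv5 and those at or above 679 CPM hold 11.9 to 68.5 CPM.

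At E10.25+24h the labels and the members did not run together. The libraries labelled con, in litters 1 to 4, held 17.2, 109.8, 109.8 and 114 CPM of Etv5, and those labelled R2b held 107, 24.4, 68.5 and 35.7 CPM. For Etv4 the libraries labelled con held 7.46, 56.0, 53.4 and 50.6 CPM and those labelled R2b 49.8, 10.8, 30.0 and 12.6 CPM. For Etv1 they held 2.72, 8.80, 10.4 and 7.87 CPM and 10.4, 4.62, 6.50 and 3.83 CPM. In litter 1 all 3 members were high in the library labelled R2b and low in the one labelled con, and in litters 2, 3 and 4 the order was the other way round. The groups overlapped for every member. By label, the log2 fold change was -0.22 for Etv1 (standard error 0.42), -0.68 for Etv4 (standard error 0.63) and -0.56 for Etv5 (standard error 0.59), and each had an edgeR adjusted p of 0.9999. Over all genes edgeR called 0% lower and 0% higher in that exposure, with 175 genes at an unadjusted p under 0.05, and DESeq2 called 0 genes.

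Without litter 1 the log2 fold change was -0.83 for Etv1, -1.55 for Etv4 and -1.35 for Etv5, with edgeR adjusted p of 0.156, 0.130 and 0.143. With the litter as a block, still without litter 1, it was -0.85, -1.66 and -1.46, and all 3 were called (adjusted p of 0.0299, 0.0312 and 0.0351), in a fit that called 614 of all genes. In litter 3, whose library labelled con also held trap reads, the library labelled R2b kept 62.6% of Etv1, 56.2% of Etv4 and 62.4% of Etv5, more than in litters 2 and 4. Those litters kept 52.5% and 48.6% of Etv1, 19.4% and 25.0% of Etv4, and 22.3% and 31.2% of Etv5. Without litters 1 and 3, a choice made after seeing the data that leaves 2 litters, Etv4 fell by 2.16 (adjusted p = 0.0390). The unblocked values were then -0.96 for Etv1 (adjusted p = 0.268) and -1.87 for Etv5 (adjusted p = 0.124), and with the litter as a block all 3 were called, at -0.96, -2.16 and -1.89 (adjusted p of 0.0373, 0.00359 and 0.00714). That block fit called 877 of all genes.

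The size of the response was also compared between the later exposure and the earlier ones. With all litters, the response at E10.25+24h minus that at E9.25+24h was 1.44 for Etv1, 2.12 for Etv4 and 1.85 for Etv5 on the log2 scale (edgeR adjusted p of 0.525, 0.469 and 0.416). For that difference edgeR called 0% of all genes (1344 at an unadjusted p under 0.05) and DESeq2 called 73. Against E9.75+12h the differences were 1.10, 1.87 and 1.81 (adjusted p of 0.338, 0.217 and 0.148), in a test that called 3.96% of all genes. That count, 621 genes, rests on single litters, since it was 0 without litter 1 and 2151 without litter 2 of E9.75+12h, and 56, 29 and 141 without litters 1, 3 and 4 of E10.25+24h. Without litters 1 and 3 of E10.25+24h the differences from E9.25+24h shrank to 0.69, 0.63 and 0.52, and those from E9.75+12h to 0.35, 0.38 and 0.49. None of these passed the test, so a different response at the later stage was not shown.

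Levels can be compared between the members only per length, and for this the CPM was divided by the length of all annotated exons in kb. That length, over all annotated transcripts, was 13.296 kb for Etv1, 3.104 kb for Etv4 and 4.103 kb for Etv5. The levels per length and the shares below depend on it, and which transcripts were present was not tested. In con pools of E9.75+12h Etv5 stood at 24.2 ± 0.76 CPM per kb (SD, n = 3), Etv4 at 14.8 ± 1.52 and Etv1 at 0.870 ± 0.18. At E9.25+24h they stood at 27.7 ± 1.11, 11.5 ± 2.12 and 0.570 ± 0.15 (SD, n = 4). The order Etv5, Etv4, Etv1 held in every con and R2b library. Summed over the group the con pools of E9.75+12h reached 39.9 ± 2.31 CPM per kb and the R2b pools 7.56 ± 5.03 (SD, n = 3). At E9.25+24h it was 39.7 ± 2.27 in con and 6.99 ± 3.30 in R2b (SD, n = 4). Etv5 supplied 60.7% of the con sum at E9.75+12h, Etv4 37.1% and Etv1 2.17%.

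Etv1 took a larger share of the sum in R2b pools than in con pools of the exposures that ended at E10.25. At E9.75+12h Etv1 made up 1.80% to 2.45% of the sum in con pools and 3.27% to 8.14% in R2b pools, and at E9.25+24h 0.955% to 1.87% and 2.03% to 3.21%. By label, the shares at E10.25+24h overlapped, at 1.323% to 3.004% in con and 1.815% to 3.548% in R2b libraries. A ratio of members within a library needs no scaling between libraries. The log2 ratio of Etv4 to Etv1 was lower in R2b than in con by 1.43 at E9.75+12h, in 3 of 3 litters and without overlap (two-sided exact permutation p = 0.1, the smallest that 3 against 3 allows). At E9.25+24h it was lower by 1.26, in 4 of 4 litters and without overlap (exact permutation p = 0.0286, the smallest that 4 against 4 allows). The ratio of Etv5 to Etv1 was lower by 1.13 (exact p = 0.1) and 0.63 (exact p = 0.0857, groups overlapping but lower in 4 of 4 litters). For Etv4 to Etv5 the differences were -0.30 (exact p = 0.3) and -0.63 (exact p = 0.143), with overlap in both, and it was lower in 2 of 3 and 4 of 4 litters. For the 3 ratios at E9.25+24h an exact test on the litter differences gave p = 0.125, the smallest that 4 litters allow. At E10.25+24h, by label, the differences for Etv4 to Etv1, Etv5 to Etv1 and Etv4 to Etv5 were -0.44, -0.29 and -0.14 (exact p of 0.257, 0.429 and 0.257), and without litters 1 and 3 they were -1.200, -0.94 and -0.26, with no test. After Benjamini-Hochberg adjustment over the 9 ratio tests the lowest exact p became 0.225, so none passed the correction. The 3 litters of E9.75+12h could not have passed it, and the exposures of 4 litters could have passed only if all 6 of their tests had reached the smallest p, so the correction says little here.

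**Figure D4:**
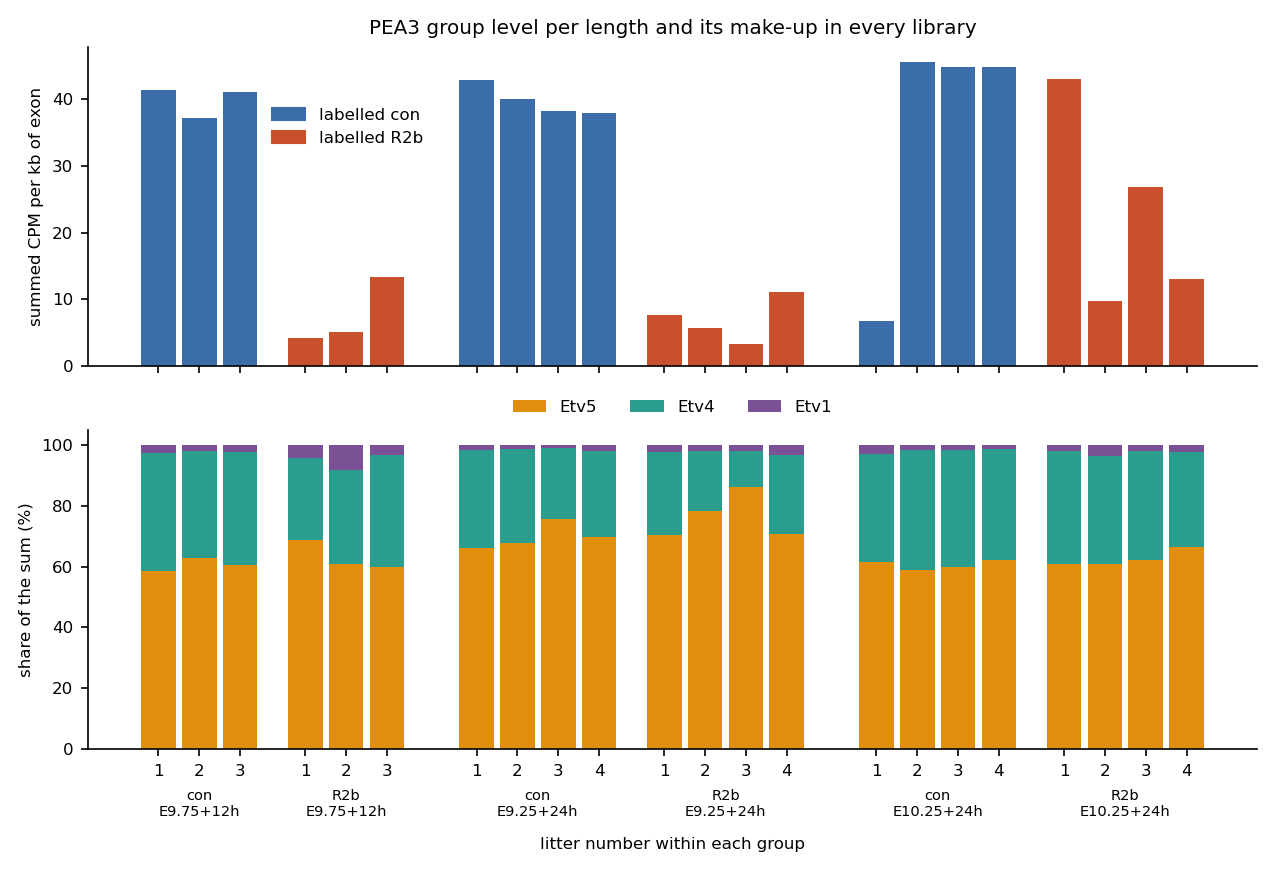
The upper panel gives the summed CPM per kb of exon of the 3 genes in every library, blue for con and red for R2b by label, and the lower panel the share of each gene in that sum in percent. Litter numbers and groups stand on the horizontal axis. The sum is 37.2 to 42.8 in con pools and 3.36 to 13.3 in R2b pools of E9.75+12h and E9.25+24h, and Etv5 (orange) is the largest share in every library.

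The level in con was compared across exposures, each of which has library numbers with a prefix of its own, so any difference between these series of libraries and the exposures cannot be told apart. The mean con level of Etv5 was 99.1 ± 3.12 CPM (SD, n = 3) for the E9.75+12h pools. It was 113.7 ± 4.54 CPM (SD, n = 4) for E9.25+24h and 87.8 ± 47.1 CPM (SD, n = 4) for E10.25+24h. Etv4 stood at 46.0 ± 4.71, 35.6 ± 6.59 and 41.9 ± 23.1 CPM, and Etv1 at 11.6 ± 2.39, 7.58 ± 1.99 and 7.44 ± 3.31 CPM. Without the library labelled con of litter 1, the last group stood at 9.01 ± 1.27 CPM for Etv1, 53.3 ± 2.73 CPM for Etv4 and 111 ± 2.59 CPM for Etv5 (SD, n = 3). No member was called between any of these groups, whereas edgeR called 33.8% of all genes between E9.75+12h and E9.25+24h, 35.7% between E9.25+24h and E10.25+24h, and 44.2% between E9.75+12h and E10.25+24h. All con libraries stood in 1 fit, so the spread of the E10.25+24h group, with its litter 1, entered every one of these tests. Con pools of Etv5 did not overlap between E9.75+12h (95.9 to 102 CPM) and E9.25+24h (108.5 to 118.5 CPM), yet that standard error was 0.43. The missing call there does not show equal levels. The log2 differences from E9.75+12h to E9.25+24h were -0.61 for Etv1 (edgeR adjusted p = 0.229), -0.37 for Etv4 (adjusted p = 0.578) and 0.20 for Etv5 (adjusted p = 0.762). From E9.25+24h to E10.25+24h they were -0.03, 0.23 and -0.37 (adjusted p of 0.959, 0.703 and 0.497), and over the whole interval -0.64, -0.14 and -0.18 (adjusted p of 0.177, 0.832 and 0.766). Without the library labelled con of litter 1, Etv4 was higher at E10.25+24h than at E9.25+24h by 0.59 (adjusted p = 0.00853), with con libraries at 50.6 to 56.0 against 27.6 to 42.99 CPM. Without the con libraries of litters 1 and 3 that difference was 0.58 (adjusted p = 0.0344). Without that library of litter 1, Etv5 was higher at E10.25+24h than at E9.75+12h by 0.17 (adjusted p = 0.0288), and without both con libraries by 0.18 (adjusted p = 0.0662). The sign of these Etv5 differences was opposite to that over all litters.

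The other ETS factors were a mixed list. Of 23 listed ETS genes outside the PEA3 group, 18 were in the table and 17 were tested at E9.75+12h, where 3 rose, 2 fell and 12 were not called. At E9.25+24h 16 were tested, of which 3 rose, 0 fell and 13 were not called. Over all genes 10.20% rose and 9.78% fell in the first of these exposures and 9.09% and 6.5% in the second, and with so few genes the counts show nothing particular to the list. The median log2 fold change of the list was -0.04 and 0.05. Ets2, an ETS factor that is itself phosphorylated by ERK, rose from 173 ± 12.1 to 278 ± 14.1 CPM at E9.75+12h (log2 fold change 0.71, edgeR adjusted p = 0.000934) and from 155.5 ± 12.1 to 248 ± 29.6 CPM at E9.25+24h (0.68, adjusted p = 0.00332). Elf1, better known from blood cells, rose by 0.58 (adjusted p = 0.00518) and 1.01 (adjusted p = 0.0230). Elf3, an epithelial factor, rose by 0.60 (adjusted p = 0.0156) and 0.70 (adjusted p = 0.0205).

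The only listed ETS gene outside the group with a fall as large as that of Etv4 was Fev, a factor of serotonergic neurons. It was scarce, and con pools of E9.75+12h held 2.90 ± 1.75 CPM where R2b pools held 0.387 ± 0.18 CPM (log2 fold change -2.89, edgeR adjusted p = 0.00518), and it was below the filter on low counts at E9.25+24h. Gabpa, a broadly expressed regulator of mitochondrial genes, fell by 0.34 at E9.75+12h (adjusted p = 0.0349) and was at -0.07 at E9.25+24h (adjusted p = 0.343). Etv3, Etv6, Erf and the ternary complex factors Elk1, Elk3 and Elk4 were not called in either exposure. At E10.25+24h none of 18 tested was called by label, with a median of 0.03. Without litters 1 and 3 and with the litter as a block, Fev was called lower (-3.33, adjusted p = 0.0476), and Ets2 (0.44, adjusted p = 0.0276) and Elf1 (0.77, adjusted p = 0.0135) were called higher.

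**Figure D5:**
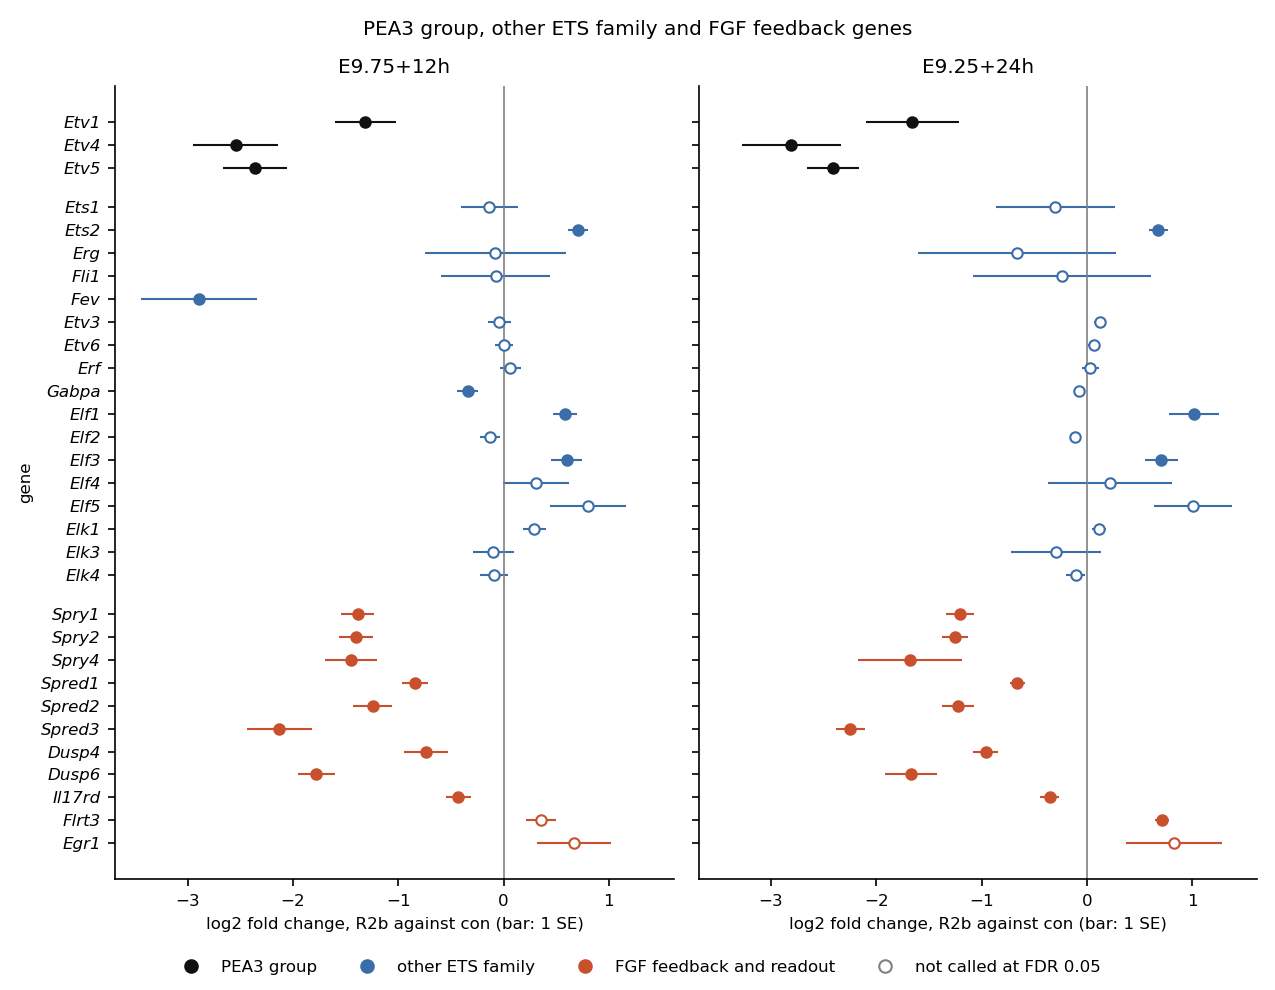
Points give the edgeR log2 fold change of R2b against con with a bar of 1 standard error, for the PEA3 group (black), other ETS genes (blue) and FGF feedback genes (red), in 1 panel for each exposure that ended at E10.25. Filled points were called at an adjusted p under 0.05. The 3 PEA3 genes lie between -2.81 and -1.31, and 12 of 17 and 13 of 16 other ETS genes are open points.

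Most feedback inhibitors and readout genes of the FGF to ERK pathway fell along with the PEA3 group. Of 11 listed genes, all 11 tested, 9 fell, 0 rose and 2 were not called at E9.75+12h (median log2 fold change -1.24), and 9 fell, 1 rose and 1 was not called at E9.25+24h (median -1.201). Dusp6, the phosphatase that inactivates ERK, fell at E9.75+12h, from 83.5 ± 4.27 to 24.1 ± 6.96 CPM (log2 fold change -1.78, adjusted p = 0.000347) and was at -1.67 at E9.25+24h (adjusted p = 0.00441). Spred3, an inhibitor of the Ras to Raf step, fell by 2.13 (adjusted p = 0.00141) and 2.25 (adjusted p = 0.000128). The Sprouty genes Spry1 and Spry2, whose products dampen receptor tyrosine kinase signalling, were at log2 fold changes of -1.39 and -1.40 at E9.75+12h and, after the longer exposure, of -1.201 and -1.253, all called. The fitted falls of Etv4 and Etv5 were larger than that of every gene on this list in both exposures, and that of Etv1 lay within the range of the list, but these differences between genes were not tested. Flrt3, a membrane protein that binds FGF receptors, went the other way and rose by 0.71 at E9.25+24h (adjusted p = 0.000768), and the immediate early gene Egr1 stood at 0.67 and 0.83 (adjusted p of 0.200 and 0.246). At E10.25+24h none of the 11 was called by label, 9 of 11 were lower and the median was -0.35. Without litters 1 and 3 and with the litter as a block, 9 of the 11 were called lower there.

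Genes that control PEA3 transcription or protein were called at counts near these shares of all genes (10.20% and 9.09% higher, 9.78% and 6.5% lower). Of 9 genes of the Capicua complex and of the COP1 ubiquitin ligase, which marks PEA3 proteins for destruction, 1 rose, 1 fell and 7 were not called at E9.75+12h, and 0 rose, 1 fell and 8 were not called at E9.25+24h. Trib1, a pseudokinase that serves as an adaptor of COP1, fell at E9.75+12h, from 67.8 ± 2.21 to 46.7 ± 3.50 CPM (log2 fold change -0.52, edgeR adjusted p = 0.00590) and by 0.46 at E9.25+24h (adjusted p = 0.00332). Cic, which encodes Capicua, rose by 0.38 at E9.75+12h (adjusted p = 0.0444) and stood at 0.08 at E9.25+24h (adjusted p = 0.388). Cop1 itself was not called, at -0.33 and -0.04.

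Of 24 genes of the cascade from FGF ligand to ERK, 23 were in the table. At E9.75+12h 3 rose, 1 fell and 19 were not called, and at E9.25+24h 4 rose, 3 fell and 16 were not called. Whether these counts depart from the shares of all genes given above was not tested, and the list is short. The genes that rose include Fgfr2 in both exposures. Fgf8 rose by 1.99 (adjusted p = 0.00685) and 1.65 (adjusted p = 0.00521), from a level of 1.203 and 1.402 CPM in con. Fgf3, a ligand of FGFR2b, rose by 0.94 at E9.25+24h (adjusted p = 0.0258) and stood at 0.85 at E9.75+12h (adjusted p = 0.0609). Reads of Fgfr2 rose by 2.89 and 3.47, and these include reads of the trap transgene, which holds Fgfr2 sequence.

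A last list held 4 genes placed downstream of Etv4 and Etv5 in the ureteric bud. In each of the exposures that ended at E10.25, 2 of the 4 rose, 1 fell and 1 was not called. With only 4 genes, chosen with earlier results known, these counts cannot show a departure from the shares of all genes given above. Myb, which encodes a regulator of progenitor cells, fell at E9.75+12h, from 19.6 ± 0.70 to 9.37 ± 0.78 CPM (log2 fold change -1.04, edgeR adjusted p = 0.00109) and from 13.5 ± 2.54 to 7.38 ± 0.79 CPM at E9.25+24h (-0.87, adjusted p = 0.0109). Cxcr4, a chemokine receptor, and Mmp14, a membrane-bound protease, rose. Cxcr4 rose by 0.67 (adjusted p = 0.00704) and 0.66 (adjusted p = 0.0407), and Mmp14 by 0.50 (adjusted p = 0.00510) and 0.53 (adjusted p = 0.0122). Met, the receptor of hepatocyte growth factor, stood at -0.10 and 0.18 and was not called.

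The genes whose levels were most like those of each member were found from log2 CPM centred on each exposure, over 22 libraries and 12807 genes. The correlations below describe these libraries, which share the con to R2b contrast, and carry no test. Nearest to Etv5 were Spred2 (r = 0.986), Etv4 (r = 0.983), Dusp6 (r = 0.982), Spred3 (r = 0.978) and Spry2 (r = 0.975). Nearest to Etv4 were Dusp6 (r = 0.984), Etv5 (r = 0.983), Spred2 (r = 0.969), Ptpn9 (r = 0.963) and Spry2 (r = 0.954). Nearest to Etv1 were Etv4 (r = 0.951), Spry4 (r = 0.946), Dusp6 (r = 0.933), Pou3f3 (r = 0.932) and Spred2 (r = 0.926). Etv4 and Etv5 were thus each other's second nearest gene, and Etv1 stood at place 29 among the genes nearest to Etv5. Of the genes named so far, only Ptpn9, a phosphatase, and Pou3f3, a POU-domain transcription factor, were neither PEA3 members nor on the feedback list. Over the 14 libraries of E9.75+12h and E9.25+24h alone, Etv4 stood at place 4 for Etv5 (r = 0.982), Etv5 at place 2 for Etv4, and Etv1 at place 82 for Etv5. Nearest to Etv5 were then Spred2, Dusp6 and Ptpn9, and nearest to Etv4 was Dusp6. For Etv1 these were Pou3f3 (r = 0.975), Etv4 (r = 0.948), Grb10, Nsg1 and Spry4.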

How the data were processed

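The members and the gene lists were chosen with earlier results of these data known. RNA was oligo(dT)-selected and made into stranded libraries, per the labels' protocols. Novoalign 2.08.03 and the build mm10 are named in the submitters' processing notes, and the counting tool, its strand setting and its annotation release are not given in the sources used here. The authors deposited raw read counts, all of them whole numbers, for 15736 Ensembl genes. Of these genes, 15522 had a symbol in GENCODE M21 (GRCm38), which also gave positions and exon lengths. Library numbers in the titles joined columns to samples: 22 of 24 samples had a column, and 2 columns that named no sample were not used. No replicates of a group agreed within sampling noise (chi-square of at least 5.48 per degree of freedom).

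For each exposure, edgeR 4.0.16 (R 4.3.3) kept genes by filterByExpr, scaled by TMM and tested R2b against con with glmQLFit and glmQLFTest, with Benjamini-Hochberg adjustment over all genes tested. A gene was called at an adjusted p under 0.05. Standard errors come from the F statistic. Differences between exposures and con levels across exposures were contrasts in joint fits. Printed CPM was scaled by TMM over all 22 libraries. Ratios of members were compared by exact permutation with scipy 1.17.1. The fit was tested on simulated counts.

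The labels give con and R2b pools of the same dam, so litter numbers pair the samples. Same-litter deviations across genes correlated at -0.18, -0.30 and -0.26 (E9.75+12h), 0.52 to 0.83 (E9.25+24h) and -0.19 to 0.40 (E10.25+24h). From each list that is not of cell types, up to 3 called genes with the smallest adjusted p are named in each exposure, and other genes named were chosen after their values were seen. Some genes that this rule names are not reported here. For likeness, the 5 genes with the highest Pearson correlation and a mean log2 CPM of at least 1 are named for each member. Alternatives were DESeq2 1.42.0, its size factors, no filter, the litter block, 1 fit of all libraries, and leaving out each library or litter. Leaving out litters 1 and 3 of E10.25+24h was chosen after seeing the data. Figures were drawn with matplotlib 3.10.9.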

Additional observations from a re-analysis of the deposited data

Results flagged for a closer look

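At E10.25+24h the library labelled con of litter 1 stood apart from the 3 others of its group. For Etv4 it held 7.457 CPM, and its gap to the nearest library took up 0.888 of the group's range. For Etv5 it held 17.2 CPM, with a gap share of 0.954, and for the summed PEA3 level it held 6.798 CPM per kb, with a gap share of 0.981. Each share is above the limit of 0.829 that Dixon's test sets for 4 samples, a limit that chance alone passes in about 1 of 20 groups. The same library held 679 CPM of Ighg1, the trap reads. The groups of 3 litters at E9.75+12h were not open to this test.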

How the results depend on the processing

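Sequencing depth limits Etv1 most, at 21 reads in its lowest library. Over the alternatives run, Etv4 and Etv5 at E9.75+12h and Etv5 at E9.25+24h kept their direction and their call. Leaving out a pool or a litter gave -1.64 to -0.89 for Etv1, -3.43 to -2.12 for Etv4 and -2.99 to -2.11 for Etv5 at E9.75+12h, and -2.23 to -1.39, -3.27 to -2.48 and -2.72 to -2.19 at E9.25+24h. The call of Etv1 at E9.75+12h was lost with all libraries in 1 fit (-1.33, adjusted p = 0.0518). With the replicate block, which pairs the pools of a litter, Etv1, Etv4 and Etv5 stood at -1.36, -2.77 and -2.50 at E9.75+12h and at -1.76, -2.89 and -2.45 at E9.25+24h, all called. Without litter 1 and with the block, Etv1 at E9.75+12h was not called (-0.87, adjusted p = 0.174). The cause was not tested.

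At E10.25+24h, leaving out a pool or a litter gave -0.83 to -0.01 for Etv1, -1.55 to -0.26 for Etv4 and -1.35 to -0.18 for Etv5. With the replicate block and without litter 1 the values were -0.85, -1.66 and -1.46, all called. With the block Etv1 changed sign without litter 2 (0.012) and without litter 4 (0.051). Without litters 1 and 3 Etv4 was called at -2.16, and with the block Etv1, Etv4 and Etv5 were called at -0.96, -2.16 and -1.89. The ratio of Etv5 to Etv1 changed sign without litter 2 (-0.63 to 0.021 over single litters).

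For the response at E9.25+24h minus that at E9.75+12h, leaving out a litter gave -0.72 to 0.58 for Etv4 and -0.34 to 0.52 for Etv5, with values above 0 for Etv5 of 0.014, 0.14 and 0.52, and 0.026 with the replicate block. Between con groups, leaving out a library gave -0.23 to 0.25 for Etv1 and 0.064 to 0.59 for Etv4 from E9.25+24h to E10.25+24h. The signs above 0 for Etv1 were 0.25, 0.035 and 0.093, and 0.13 without litters 1 and 3, where Etv4 was called at 0.58. From E9.75+12h to E10.25+24h it gave -0.31 to 0.21 for Etv4 and -0.33 to 0.17 for Etv5, and 0.21 and 0.18 without litters 1 and 3.

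Counts of all called genes moved more than those of the members. At E9.75+12h 2973 genes became 1775 with the replicate block, 4560 in 1 fit and 434 to 4583 over fits that left out a pool or a litter. At E9.25+24h 2335 became 6086 with the block and 322 to 2289. The feedback genes called lower numbered 6 to 9 over those fits in both exposures. Among the other list genes named by rule, 444 values kept their call, 67 lost it and 0 changed sign.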
